A study of Mus musculus with 13 samples.

Results

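The serum amyloid A and IL-17/IL-22 axis was examined through 9 genes of the response of the gut wall to adherent Gram-positive bacteria, of 19505 genes measured. The members were listed by symbol: the acute-phase genes Saa1, Saa2 and Saa3, the cytokine genes Il17a, Il17f and Il22, the receptor genes Il23r and Il22ra1, and the fucosyltransferase gene Fut2. All 9 were measured, each by 1 probe set, and no filter on low values was applied.

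RNA came from the ileum and colon of FVB female mice that bore a syngeneic mammary carcinoma expressing human HER2, a growth factor receptor. The mice of every group carried this tumour, so no tumour-free gut was measured. Vancomycin, which blocks cell wall synthesis in Gram-positive bacteria, was given in the drinking water at 200 mg/L from 4 weeks of age until the end. The untreated mice, labelled as receiving no antibiotic, differed from these by treatment alone as far as the labels say. The experiment ended at 9 weeks, when tumours measured 150 mm3, and the labels do not say whether the weeks count age or treatment. The 13 Affymetrix arrays comprised 3 of vancomycin ileum, 3 of no-antibiotic ileum, 3 of vancomycin colon and 4 of no-antibiotic colon. Values are RMA log2 expression values, an expression measure on which a difference of 1 is nominally a doubling, and differences are given with their standard error (SE). Levels of different genes cannot be compared on this scale.

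Serum amyloid A proteins are small apolipoproteins of the acute-phase response. In the mouse gut the epithelium makes them, and attachment of segmented filamentous bacteria to the ileal epithelium is a known inducer. In that circuit IL-23 acts on type 3 innate lymphoid cells and on T helper 17 cells, IL-22 from the lymphoid cells acts on epithelial cells through STAT3, and serum amyloid A in turn promotes IL-17 production by T helper 17 cells. IL-22 also induces Fut2, whose enzyme adds fucose to the glycans of the epithelial surface. These statements are background and not results of these arrays.

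Saa1, Saa2 and Saa3 lie in 1 cluster on mouse chromosome 7, in the order Saal1, Saa3, Gm31882, Saa4, Saa-ps, Saa1, Saa2 and Hps5 in RefSeq. Saa1 and Saa2 are near-identical copies. No transcript or probe sequences were compared, so how far their probe sets can be told apart is not known. The 250 bases before the annotated start site of the 3 genes, which lie outside the transcript, are shown as a description only. They are RefSeq sequence of GRCm38.p6, written 5′ to 3′ on the strand of the gene, at chr7:46742981-46743230 (minus strand) for Saa1, chr7:46751583-46751832 (plus strand) for Saa2 and chr7:46715677-46715926 (minus strand) for Saa3. Capitals mark matches to a C/EBP motif (TTGCNNAA) or a nuclear receptor motif (AGGTCA), read on either strand.
Saa1: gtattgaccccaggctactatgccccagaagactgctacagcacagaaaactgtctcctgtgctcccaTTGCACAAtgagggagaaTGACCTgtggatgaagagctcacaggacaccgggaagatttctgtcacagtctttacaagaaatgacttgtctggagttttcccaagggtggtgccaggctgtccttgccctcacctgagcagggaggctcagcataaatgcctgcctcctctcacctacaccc
Saa2: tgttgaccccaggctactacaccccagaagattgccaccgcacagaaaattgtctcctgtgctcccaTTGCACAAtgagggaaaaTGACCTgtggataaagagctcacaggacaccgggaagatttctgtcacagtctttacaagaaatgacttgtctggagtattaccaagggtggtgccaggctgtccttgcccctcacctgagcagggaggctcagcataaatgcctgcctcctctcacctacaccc
Saa3: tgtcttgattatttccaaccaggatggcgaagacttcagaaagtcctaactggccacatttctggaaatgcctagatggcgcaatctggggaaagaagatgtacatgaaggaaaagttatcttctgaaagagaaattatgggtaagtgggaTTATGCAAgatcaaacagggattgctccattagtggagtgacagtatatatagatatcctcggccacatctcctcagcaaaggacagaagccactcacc

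Over windows of 300 bases, from 250 before to 50 after the start site, Saa1 and Saa2 shared 287 of 301 aligned positions, an identity of 95.3%. Saa1 and Saa3 shared 50.1%, and the windows of Il17a and Il17f shared 48.8%. The C/EBP match stood at -182 to -175 in Saa1 and at -183 to -176 in Saa2, and the Saa3 window held one on the other strand at -99 to -92. The nuclear receptor match stood at -164 to -159 in Saa1 and at -165 to -160 in Saa2, and none was in the Saa3 window. C/EBP factors drive acute-phase transcription, and the AGGTCA letters are a core that many nuclear receptors bind.

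Windows were found for 8 of the 9 members, all but Fut2. A nuclear receptor match was also present at -120 to -115 in Il17a, at -58 to -53 in Il17f, and at -229 to -224 and -66 to -61 in Il23r, and Il23r also held a C/EBP match at -213 to -206. Neither motif matched in Il22 or Il22ra1. The NF-kappa-B motif and a STAT motif (TTCNNNGAA) matched in none of the 8 windows. Of 32851 mouse promoter windows of the same length, 10.8% held the C/EBP motif, 16.3% the nuclear receptor motif, 8.3% the STAT motif and 4.51% the NF-kappa-B motif. No motif letters overlapped another motif in these windows, and a match is a description of the letters only.

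**Figure D1:**
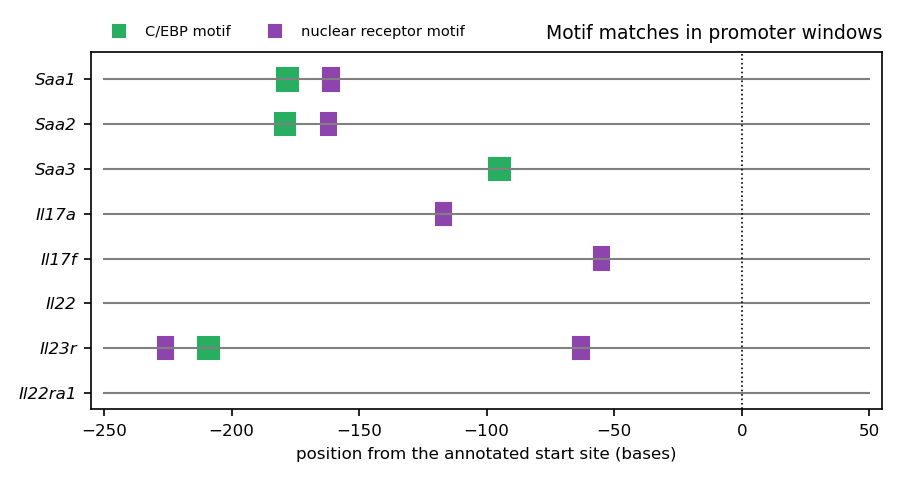
Motif matches in the promoter windows of the 8 members that had one, with position from the annotated start site in bases on the x axis and 1 line per gene. Green boxes are C/EBP matches and purple boxes nuclear receptor matches; Saa1 and Saa2 carry both at nearly the same positions, and Il22 and Il22ra1 carry neither.

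The tissue labels matched the defining genes of each tissue. All 6 ileal epithelial markers measured were higher in no-antibiotic ileum than in no-antibiotic colon, and 5 of 6 colonic markers were lower, all but Muc2. Replicate 11 of the vancomycin ileum stood apart. It correlated on average at 0.977 with its group, where replicates 13 and 14 reached 0.987 and 0.983 and the no-antibiotic ilea 0.994 or more. Its mean over 8 B-cell markers was 10.01, where replicates 13 and 14 had 7.76 and 7.38, and its mean over 7 smooth-muscle markers was 15.24, against 14.32 and 13.79. For members whose ileal result rests on it, the difference is given with and without it, while marker and list summaries include it. No detection calls were used, so a low value is not read as absence.

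In the ileum 1 of the 9 members fell with vancomycin and none rose. The member that fell was Saa1, and 95 probe sets (0.485% of 19572) fell and 10 (0.0511%) rose over the whole array, at a Benjamini-Hochberg adjusted p under 0.05 in limma. The median difference of the 9 members was -0.61, against 0.02 over all genes, and 7 of the 9 had negative differences. The members were chosen with earlier results of these data known. Member counts and medians, here and between tissues below, are therefore descriptions and do not test the axis. The values of vancomycin and no-antibiotic ilea did not overlap for 3 members, Saa1, Saa3 and Fut2, as for 16.9% of all probe sets, and the same 3 had an unadjusted p under 0.05, as did 10.1%. In the colon no member passed the test in limma, and none had an unadjusted p under 0.05, where 0.0102% of all probe sets passed and 15.9% had such a p. The colonic values of vancomycin and no antibiotic overlapped for all 9, while they did not for 12.3% of all probe sets.

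Saa1, an acute-phase apolipoprotein gene, had 6.42, 6.93 and 7.05 in the vancomycin ilea, against 11.84, 8.87 and 9.21 in the no-antibiotic ilea. Every vancomycin ileum was below every no-antibiotic ileum, and replicate 1 of the no-antibiotic ilea was well above the others. The group means were 6.80 ± 0.33 with vancomycin and 9.97 ± 1.63 with no antibiotic (SD, n = 3 each), a difference of -3.17 ± 0.56 (adjusted p = 0.0213, limma), nominally 9.02-fold lower with vancomycin. Without replicate 1 of the no-antibiotic ilea the difference was -2.24 (adjusted p = 0.00382), and without replicate 11 of the vancomycin ilea it was -2.98 (0.0364). The call was lost without replicate 13 of the vancomycin ilea (-3.24, adjusted p = 0.0674) and in a fit of the 6 ileal arrays alone (adjusted p = 0.239), which does not share the spread of the colon arrays.

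T-cell markers had lower values beside Saa1. The mean of 8 T-cell markers was 8.32 to 9.29 in vancomycin ilea and 9.47 to 9.89 in no-antibiotic ilea. All 8 T-cell markers had negative differences, with a median of -0.80, and 1 of them, Cd6, passed the test, where 0.485% of all probe sets fell. An unadjusted p under 0.05 was reached by 6 of them, as by 10.1% of all probe sets. The ileal groups did not overlap for 4 of them, as for 16.9%. The mean of 7 epithelial markers was 15.48 to 16.04 in vancomycin ilea and 15.91 to 15.96 in no-antibiotic ilea, and none of them passed. The mean of 6 markers of hepatocytes, the main source of circulating serum amyloid A, was 7.05 to 7.27 in vancomycin ilea and 6.69 to 7.15 in no-antibiotic ilea. The mean of 7 smooth-muscle markers was 15.24, 14.32 and 13.79 in vancomycin ilea, with replicate 11 highest, and 13.74 to 13.88 in no-antibiotic ilea. All 7 smooth-muscle markers had positive differences, with a median of 0.66, none passed in limma, and 3 had an unadjusted p under 0.05. The part of cell composition in the Saa1 difference was not tested, and in bulk RNA fewer cells of a type and less RNA per cell cannot be told apart.

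In the colon Saa1 had 13.64, 14.33 and 14.79 with vancomycin, against 13.56, 13.83, 13.74 and 13.60 with no antibiotic. The colon groups overlapped, and the vancomycin colons spread more widely. The means were 14.25 ± 0.58 with vancomycin (SD, n = 3) and 13.68 ± 0.13 with no antibiotic (SD, n = 4), a difference of 0.57 ± 0.52 with an interval (95% confidence) of -0.55 to 1.70. It was 0.30 without replicate 14 of the vancomycin colons and 0.88 without their replicate 11. The vancomycin change in ileum minus that in colon was -3.74 ± 0.77 (adjusted p = 0.0956, limma), which did not pass the threshold, with an interval of -5.39 to -2.10. This difference passed without replicate 1 of the no-antibiotic ilea (-2.81, adjusted p = 0.0129) or without their replicate 2 (-4.30, adjusted p = 0.0347). Over the whole array 37 probe sets (0.189%) differed between tissues in their vancomycin change, 31 of them (0.158%) in the negative direction and 6 (0.0307%) in the positive. None of the 9 members was among these, and 4 members had an unadjusted p under 0.05, Saa1, Saa2, Saa3 and Il23r, where 8.01% of all probe sets did.

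**Figure D2:**
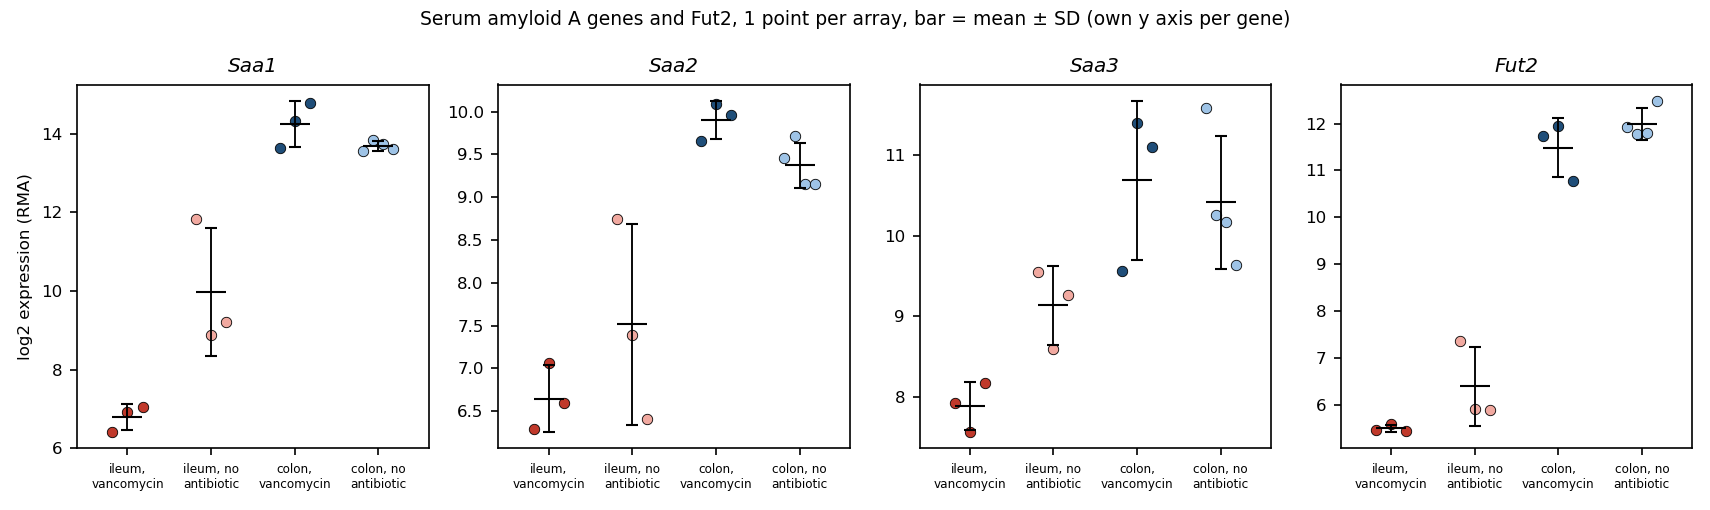
Log2 expression (RMA) of Saa1, Saa2, Saa3 and Fut2 on the y axis by group on the x axis, 1 point per array, with the mean and SD as bars and a separate y axis for each gene. The 3 vancomycin ilea lie at 6.42 to 7.05 for Saa1, below the no-antibiotic ilea at 8.87 to 11.84 and the colons at 13.56 to 14.79.

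Saa2, the neighbouring copy of Saa1, had 6.29, 7.06 and 6.59 in the vancomycin ilea, against 8.75, 7.39 and 6.41 in the no-antibiotic ilea. The ileal groups overlapped, with replicate 3 of the no-antibiotic ilea among the vancomycin values and replicate 1 highest, as for Saa1. The means of 6.65 ± 0.39 with vancomycin and 7.52 ± 1.18 with no antibiotic (SD, n = 3 each) differed by -0.87 ± 0.42 (adjusted p = 0.508, limma). Without replicate 1 of the no-antibiotic ilea the difference was -0.25, and without their replicate 3 it was -1.42. Because Saa1 and Saa2 are near-identical, the share of each signal that came from the other transcript is uncertain.

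In the colon Saa2 had 9.66, 10.09 and 9.96 with vancomycin, against 9.46, 9.71, 9.16 and 9.16 with no antibiotic. The means were 9.90 ± 0.22 with vancomycin (SD, n = 3) and 9.37 ± 0.27 with no antibiotic (SD, n = 4), and their difference of 0.53 ± 0.39 did not pass the test (adjusted p = 0.532, limma). The lowest vancomycin colon was below the highest no-antibiotic colon. The vancomycin change in ileum minus that in colon was -1.40 ± 0.57 (adjusted p = 0.544, limma).

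Saa3, the member of the family that macrophages and adipocytes also make in mice, had 7.93, 7.57 and 8.17 in the vancomycin ilea, against 9.55, 8.60 and 9.26 in the no-antibiotic ilea. The ileal groups did not overlap. The means of 7.89 ± 0.30 with vancomycin and 9.14 ± 0.49 with no antibiotic (SD, n = 3 each) differed by -1.25 ± 0.49, with an interval of -2.29 to -0.20, and the adjusted p was 0.398 (limma). The mean of 6 macrophage markers was 7.97 to 8.49 in vancomycin ilea and 8.15 to 8.29 in no-antibiotic ilea. For 6 adipocyte markers it was 10.34 to 11.80 in vancomycin ilea and 10.65 to 11.15 in no-antibiotic ilea. Both marker means overlapped between the ileal groups.

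Colonic Saa3 had 9.56, 11.39 and 11.10 with vancomycin, against 11.58, 10.26, 10.17 and 9.64 with no antibiotic. The groups overlapped almost completely, and the difference was 0.27 ± 0.45 (adjusted p = 0.81, limma). The vancomycin change in ileum minus that in colon was -1.52 ± 0.67 (adjusted p = 0.591, limma). Saa4, the constitutively made family member between Saa3 and Saa1 in the cluster, was not one of the 9 and lay at 4.12 to 4.63 in vancomycin ilea and 4.26 to 4.61 in no-antibiotic ilea, a difference of -0.01 ± 0.20.

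The 3 cytokine genes had low values and differed little between groups, at 5.37 to 6.82 where array medians were 7.98 to 8.14. Their ranges over all 13 arrays were 0.70 for Il17a, 0.47 for Il17f and 0.63 for Il22, against a median range of 0.97 over all genes, and 22.1%, 4.1% and 14.8% of genes had a smaller range. The 3 serum amyloid A genes and Fut2, by contrast, ranged over 8.37 (Saa1), 3.80 (Saa2), 4.01 (Saa3) and 7.04 (Fut2), and at least 97.5% of genes had a smaller range than each. All 3 cytokine genes were among the dimmest 33.3% of probe sets, where log2 differences are compressed. A narrow range there does not show unchanged expression.

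Il17a, the cytokine of T helper 17 cells that acts on epithelium and recruits neutrophils, had 6.30, 6.27 and 6.62 in the vancomycin ilea, against 6.28, 6.32 and 6.19 in the no-antibiotic ilea. It had 6.28, 6.71 and 6.82 in the vancomycin colons, against 6.14, 6.12, 6.61 and 6.17 in the no-antibiotic colons. The groups overlapped in both tissues. The differences were 0.13 ± 0.18 in ileum (adjusted p = 0.84, limma), with an interval of -0.25 to 0.52, and 0.34 ± 0.17 in colon (adjusted p = 0.333, limma), with an interval of -0.02 to 0.70.

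Il17f, a related cytokine encoded beside Il17a, had 6.29, 6.40 and 6.34 in the vancomycin ilea, against 6.50, 6.31 and 6.38 in the no-antibiotic ilea. In the colon it had 6.25, 6.20 and 6.25 with vancomycin, against 6.28, 6.15, 6.62 and 6.30 with no antibiotic. The groups overlapped in each tissue, and the differences of -0.05 ± 0.14 in ileum and -0.10 ± 0.13 in colon did not pass the test, with adjusted p of 0.934 and 0.731 in limma.

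Il22, whose product acts on epithelial cells, had 5.67, 5.97 and 5.85 in the vancomycin ilea, against 5.67, 5.82 and 5.37 in the no-antibiotic ilea. It had 5.98, 6.0 and 5.86 in the vancomycin colons, against 5.55, 5.78, 5.92 and 5.64 in the no-antibiotic colons. The groups overlapped in each tissue. The differences were 0.21 ± 0.15 in ileum, with an interval of -0.12 to 0.54, and 0.22 ± 0.14 in colon, with an interval of -0.09 to 0.53, and neither passed (adjusted p of 0.669 and 0.463, limma). Il22 has a near-identical copy, Iltifb, so which transcript its probe set read is uncertain; the Iltifb probe set differed by 0.18 ± 0.29 in ileum and by 0.43 ± 0.27 in colon.

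Among cells that make these cytokines, the T-cell marker mean did not overlap between the ileal groups. It was 8.32 to 9.29 with vancomycin and 9.47 to 9.89 with no antibiotic. The markers of type 3 innate lymphoid cells overlapped between these groups. Their mean over 6 markers was 9.36, 8.47 and 7.76 in the vancomycin ilea, with replicate 11 highest, and 8.07 to 8.51 in the no-antibiotic ilea.

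The receptor genes overlapped between treatments in both tissues. Il23r, the IL-23 receptor subunit of type 3 lymphocytes, had 9.01, 8.22 and 7.79 in the vancomycin ilea, against 8.66, 9.08 and 8.57 in the no-antibiotic ilea. The means were 8.34 ± 0.62 with vancomycin and 8.77 ± 0.27 with no antibiotic (SD, n = 3 each), a difference of -0.43 ± 0.26 (adjusted p = 0.603, limma). Replicate 11 was the highest of the vancomycin ilea, and without it the difference was -0.765. It was -0.155 without replicate 14, the lowest of them, and -0.275 without replicate 2 of the no-antibiotic ilea. In the colon Il23r had 8.29, 7.97 and 8.27 with vancomycin, against 7.65, 8.08, 7.50 and 7.60 with no antibiotic, a difference of 0.47 ± 0.25 (adjusted p = 0.361, limma). The change in ileum minus that in colon was -0.90 ± 0.36 (adjusted p = 0.525, limma).

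Il22ra1, the receptor subunit that lets epithelial cells respond to IL-22, had 11.95, 13.35 and 13.79 in the vancomycin ilea, against 13.66, 13.49 and 13.77 in the no-antibiotic ilea. Replicate 11 was the low value, and the other vancomycin ilea lay at or beside the no-antibiotic values. The difference was -0.61 ± 0.41 (adjusted p = 0.642, limma) with all arrays, -0.07 without replicate 11 and -0.99 without replicate 14. The mean of 6 ileal epithelial markers was 15.45 in replicate 11, 16.23 and 16.39 in replicates 13 and 14, and 16.12 to 16.22 in no-antibiotic ilea. In the colon Il22ra1 had 11.34, 12.41 and 12.88 with vancomycin, against 12.33, 12.49, 12.28 and 11.95 with no antibiotic, and the difference of -0.05 ± 0.39 did not pass (adjusted p = 0.962, limma).

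**Figure D3:**
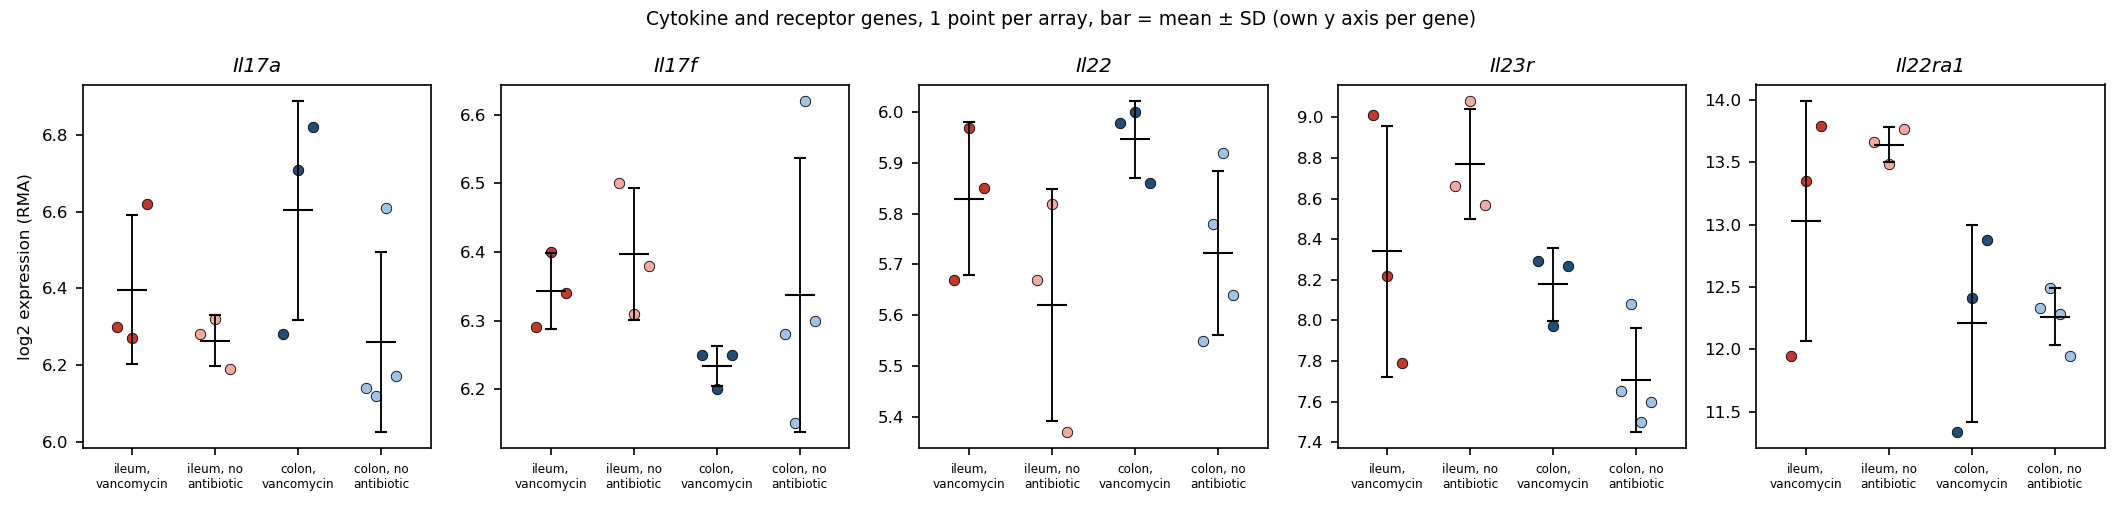
Log2 expression (RMA) of Il17a, Il17f, Il22, Il23r and Il22ra1 on the y axis by group on the x axis, 1 point per array, with the mean and SD as bars and a separate y axis for each gene. The y axes of the 3 cytokine genes span less than 1 log2 unit, and within each tissue the vancomycin and no-antibiotic arrays overlap for all 5 genes.

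Fut2, the fucosyltransferase gene, had 5.46, 5.58 and 5.44 in the vancomycin ilea, against 7.36, 5.91 and 5.89 in the no-antibiotic ilea. Every vancomycin ileum was below every no-antibiotic ileum, but replicates 2 and 3 with no antibiotic were close to the vancomycin values and replicate 1 was far above. All ileal values but that of replicate 1 lay in the range of the cytokine genes, 5.37 to 6.82. Log2 differences are compressed at such low values. The means of 5.49 ± 0.08 with vancomycin and 6.39 ± 0.84 with no antibiotic (SD, n = 3 each) differed by -0.89 ± 0.37, with an interval of -1.68 to -0.10, and the adjusted p was 0.429 (limma). Without replicate 1 of the no-antibiotic ilea the difference was -0.41. In the colon Fut2 had 11.74, 11.94 and 10.77 with vancomycin, against 11.92, 11.77, 11.79 and 12.48 with no antibiotic, a difference of -0.51 ± 0.34 (adjusted p = 0.492, limma), or -0.15 without replicate 14 of the vancomycin colons, their lowest. The changes in ileum and colon differed by -0.39 ± 0.50 (adjusted p = 0.898, limma).

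Replicate 1 of the no-antibiotic ilea was the highest of its group for 5 of the 9 members, Saa1, Saa2, Saa3, Il17f and Fut2, and the lowest for none. Its average correlation with its group was 0.994. Among the vancomycin arrays, replicate 11 was the lowest of its group for 5 members in the ileum, Saa1, Saa2, Il17f, Il22 and Il22ra1. In the colon replicate 11 was the lowest for 5, Saa1, Saa2, Saa3, Il17a and Il22ra1. Other arrays had like counts. Replicate 3 of the no-antibiotic ilea was the lowest of its group for 5 members, and replicates 13 and 14 of the vancomycin ilea were each the highest for 4. The share over all genes was not counted, so these counts describe the members only.

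**Figure D4:**
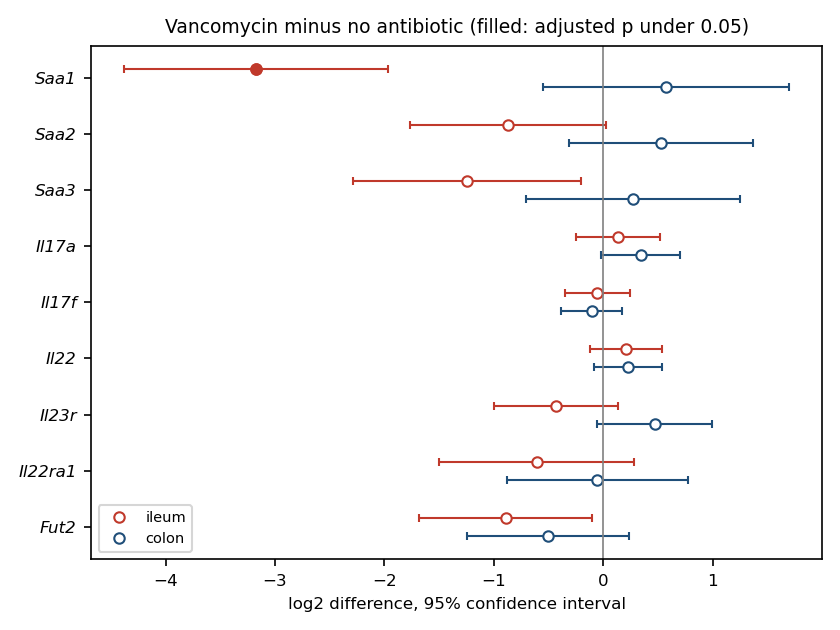
Log2 difference, vancomycin minus no antibiotic, on the x axis for each of the 9 genes, with 95% confidence intervals as bars, ileum in red above colon in blue. Filled points have an adjusted p under 0.05: Saa1 in ileum, at -3.17, is the only one, and every colon interval includes 0.

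The tissues were compared next, ileum minus colon, within each treatment. Under vancomycin 4 of the 9 members were lower in ileum, Saa1, Saa2, Saa3 and Fut2, and none was higher. Over the whole array 7.45% of probe sets were lower and 7.67% higher in this comparison, 15.1% in all. With no antibiotic, 2 members were higher in ileum, Il23r and Il22ra1, and 3 were lower, Saa1, Saa2 and Fut2, with 9.59% of all probe sets higher and 11% lower, 20.5% in all. The median over the 9 members was -0.21 under vancomycin and -0.10 with no antibiotic, against -0.04 over all genes in both.

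Fut2 was lower in ileum under both treatments. Its values under vancomycin were 5.44 to 5.58 in ileum and 10.77 to 11.94 in colon, a difference of -5.99 ± 0.37 (adjusted p = 4.63e-08, limma). With no antibiotic the ileal values of 5.89 to 7.36 lay below the colonic values of 11.77 to 12.48, a difference of -5.60 ± 0.34 (adjusted p = 4.14e-08, limma), the largest of the 9 members there. No ileum of either treatment overlapped a colon.

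Saa1 was lower in ileum, with a difference of -7.45 ± 0.56 under vancomycin (adjusted p = 3.96e-07, limma) and of -3.71 ± 0.52 with no antibiotic (adjusted p = 0.00014, limma). In order of its level the groups ran vancomycin ileum, no-antibiotic ileum, no-antibiotic colon and vancomycin colon, and only the 2 colon groups overlapped. Saa2 ran in the same order of means and was lower in ileum, with a difference of -3.26 ± 0.42 under vancomycin (adjusted p = 8.54e-05, limma) and of -1.86 ± 0.39 with no antibiotic (adjusted p = 0.00342, limma), and its ileal groups overlapped as well.

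Saa3 was lower in ileum under vancomycin, with a difference of -2.79 ± 0.49 (adjusted p = 0.0011, limma). With no antibiotic the difference was -1.28 ± 0.45 (adjusted p = 0.0639, limma), and the ileal values of 8.60 to 9.55 and colonic values of 9.64 to 11.58 did not overlap. It passed without replicate 5 of the no-antibiotic colons (-1.53, adjusted p = 0.0378) and without replicate 11 of the vancomycin colons (adjusted p = 0.0252). The order of the Saa3 means was that of Saa1 and Saa2, with overlapping colon groups. Under vancomycin the values did not overlap between tissues for 5 of the 9 members, as for 27.4% of all probe sets, and with no antibiotic for 6, as for 32.2%. An unadjusted p under 0.05 was reached by 4 members under vancomycin, as by 26.7% of all probe sets, and by 6 with no antibiotic, as by 30.5%.

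Il23r overlapped between the tissues under vancomycin, with a difference of 0.16 ± 0.26 (adjusted p = 0.758, limma), or -0.17 without replicate 11 of the ileum. With no antibiotic it was higher in ileum by 1.06 ± 0.25 (adjusted p = 0.00629, limma), with values of 8.57 to 9.08 in ileum and 7.50 to 8.08 in colon. The T-cell marker mean was 8.32 to 9.29 in vancomycin ileum and 7.38 to 7.89 in vancomycin colon. With no antibiotic it was 9.47 to 9.89 in ileum and 7.30 to 7.86 in colon, and 7 of the 8 markers were higher in ileum. Its part in the Il23r difference was not tested.

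Il22ra1 differed between the tissues by 0.82 ± 0.41 under vancomycin (adjusted p = 0.228, limma), and without replicate 11 of the ileum the difference was 1.36 and passed (adjusted p = 0.00895). With no antibiotic it was higher in ileum by 1.38 ± 0.39 (adjusted p = 0.0204, limma), with values of 13.49 to 13.77 in ileum and 11.95 to 12.49 in colon. This call was lost without replicate 5 of the no-antibiotic colons (1.27, adjusted p = 0.0571) or without replicate 1 (1.37, 0.063) or 3 (1.31, 0.0779) of the no-antibiotic ilea. The mean of 7 epithelial markers was 15.91 to 15.96 in no-antibiotic ileum and 15.17 to 15.39 in no-antibiotic colon, and 3 of the 7 were higher in ileum.

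The 3 cytokine genes did not pass between tissues. Under vancomycin Il17a differed by -0.21 ± 0.18, Il17f by 0.11 ± 0.14 and Il22 by -0.12 ± 0.15, with adjusted p between 0.517 and 0.696 (limma). With no antibiotic Il17a differed by 0.0033 ± 0.17, Il17f by 0.06 ± 0.13 and Il22 by -0.10 ± 0.14, with adjusted p between 0.714 and 0.994 (limma). Vancomycin ilea and colons did not overlap for Il17f, at 6.29 to 6.40 in ileum and 6.20 to 6.25 in colon.

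**Figure D5:**
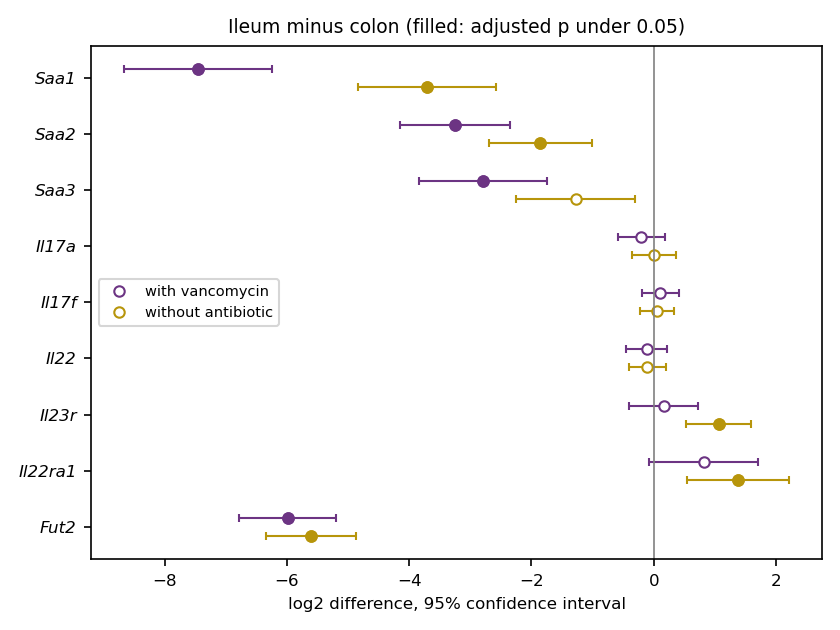
Log2 difference, ileum minus colon, on the x axis for each of the 9 genes, with 95% confidence intervals as bars, vancomycin in purple above no antibiotic in ochre. Filled points have an adjusted p under 0.05: Saa1, Saa2 and Fut2 are lower in ileum under both treatments, Saa3 under vancomycin, and Il23r and Il22ra1 are higher in ileum with no antibiotic.

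The rest of the pathway was followed through 5 lists that together held 66 further measured genes. In the ileum 4 of the 66 (6.06%) fell with vancomycin and none rose, against 0.536% of all probe sets in either direction. The lists were chosen with earlier results of these data known. The shares given for them, here and between tissues below, are therefore descriptions and do not test the pathway. In the colon none passed in limma and 6 had an unadjusted p under 0.05, as did 15.9% of all probe sets. The median ileal difference was 0.06 over the 16 measured of 18 genes of type 17 induction and cytokines, -0.06 over 13 of 16 receptor and signalling genes, -0.03 over 16 of 17 epithelial targets of IL-22 and IL-17, -0.09 over 10 of 10 fucosylation partners of Fut2 and 0.05 over 11 of 12 further serum amyloid and acute-phase genes, against 0.02 over all genes.

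Of the genes listed as epithelial targets 3 of 16 fell in the ileum and 13 did not pass. A place in this list does not make a gene specific to IL-22 or IL-17. Nos2, the inducible nitric oxide synthase, had 8.42, 9.43 and 9.28 in the vancomycin ilea, against 12.52, 12.76 and 12.35 in the no-antibiotic ilea, a difference of -3.50 ± 0.37 (adjusted p = 0.000406, limma). Ubd, a ubiquitin-like modifier induced by inflammatory cytokines, had 4.38, 4.06 and 4.09 in the vancomycin ilea, against 8.32, 6.93 and 8.35 in the no-antibiotic ilea, a difference of -3.69 ± 0.33 (adjusted p = 0.000243, limma). Neither gene's ileal groups overlapped. Both differed between tissues in their vancomycin change, by -3.67 ± 0.51 for Nos2 (adjusted p = 0.0108, limma) and by -4.11 ± 0.45 for Ubd (adjusted p = 0.00304, limma). Ubd was among the dimmest 33.3% of probe sets, where log2 differences are compressed, so the size of its differences is uncertain.

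Duoxa2, the maturation factor of the oxidase DUOX2, had 8.51, 8.54 and 8.84 in the vancomycin ilea, against 13.05, 11.67 and 11.68 in the no-antibiotic ilea, a difference of -3.50 ± 0.65 (adjusted p = 0.0333, limma). Its call was lost when any one of 6 arrays was left out, the 3 no-antibiotic ilea, replicates 13 and 14 of the vancomycin ilea and replicate 5 of the no-antibiotic colons, with adjusted p between 0.0504 and 0.171. The lectin genes Reg3b and Reg3g, which are antibacterial targets of IL-22, did not pass. Neither did Reg3a, at 0.64 ± 0.30 (adjusted p = 0.507, limma), nor Pigr, a receptor gene for IgA transport, at -0.79 ± 0.17 (adjusted p = 0.0689, limma). The ileal groups did not overlap for Pigr. Over the 16 targets 9 differences were negative, and 5 had an unadjusted p under 0.05, as did 10.1% of all probe sets. Reg3g lay at 14.50 to 14.62 in vancomycin ilea and 14.59 to 15.44 in no-antibiotic ilea, and Reg3b at 15.56 to 15.85 in vancomycin ilea and 15.28 to 16.43 in no-antibiotic ilea.

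Among the receptor and signalling genes 1 of 13 fell in the ileum, Zc3h12a, which encodes the RNase regnase-1, a brake on IL-17 signalling. It had 9.98, 9.98 and 9.72 in the vancomycin ilea, against 12.13, 11.46 and 11.76 in the no-antibiotic ilea, a difference of -1.89 ± 0.22 (adjusted p = 0.000739, limma). The change in ileum minus that in colon was -1.87 ± 0.30 (adjusted p = 0.0257, limma). That difference was lost when any one of 6 arrays was left out, with adjusted p between 0.0523 and 0.0994: replicate 1 of the no-antibiotic colons, replicate 14 of the vancomycin colons, replicates 1 and 3 of the no-antibiotic ilea, and replicates 13 and 14 of the vancomycin ilea. Nfkbiz, a transcriptional co-regulator downstream of the IL-17 receptor, had 11.27 ± 0.48 in vancomycin ilea and 12.17 ± 0.18 in no-antibiotic ilea (SD, n = 3 each), with an adjusted p of 0.145 (limma), and passed without replicate 11 of the vancomycin ilea (-1.13, adjusted p = 0.0298).

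No gene of the other 3 lists passed in the ileum. Those with the smallest unadjusted p were Stat3, the transducer of the IL-22 signal, at -0.54 ± 0.20, and Il10, an anti-inflammatory cytokine, at 0.39 ± 0.15, in the type 17 list. Among the fucosylation partners Gmds, an enzyme of GDP-fucose synthesis, was at -0.33 ± 0.14, and B4galt1, a galactosyltransferase, at -0.68 ± 0.34. Among the acute-phase genes Il6ra, the IL-6 receptor gene, was at 0.93 ± 0.38, and Tnf, an inflammatory cytokine, at -0.37 ± 0.23. Adjusted p over all 6 lay between 0.379 and 0.611 (limma).

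Between tissues under vancomycin, 7 of the 66 list genes were higher in ileum and 15 lower, 33.3% against 15.1% of all probe sets. Reg3g was higher by 7.24 ± 0.47, Il17re lower, at -2.40 ± 0.28, and B3galt5 lower, at -4.96 ± 0.25. Duoxa2 was lower in ileum, at -2.95 ± 0.65, under vancomycin (adjusted p = 0.00636, limma), and differed by 0.71 ± 0.61 with no antibiotic (adjusted p = 0.502, limma).

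The remaining calls under vancomycin were Reg3a (6.97), Reg3b (8.09), Nos2 (1.26), Il17rc (1.00) and the acute-phase genes Hp (2.81) and Orm1 (2.86) higher in ileum. Lower in ileum were the chemokine gene Ccl20, at -1.81 ± 0.38 (adjusted p = 0.00465, limma), Pigr, the receptor that carries IgA across epithelium, at -1.16 ± 0.17 (0.000336), Tnfaip3, an inhibitor of NF-kappaB signalling, at -1.29 ± 0.25 (0.00212), and Cebpd, an acute-phase transcription factor, at -0.96 ± 0.23 (0.00921). Also lower were Nfkbiz (-1.01), Zc3h12a (-0.70), Traf3ip2 (-0.53), Il1r1 (-1.35), Il18 (-1.09), Tlr2 (-1.66), Tlr4 (-3.24) and Fut8 (-1.08). Of these calls, 7 were lost in at least 1 alternative. In a fit of the vancomycin groups alone Il1r1, Ccl20 and Nfkbiz were lost, with adjusted p of 0.0541, 0.0538 and 0.0549, as were Zc3h12a, Traf3ip2 and Nos2. Leaving out 1 array lost Zc3h12a for 8 arrays, Nos2 for 4, replicates 11 and 14 of the vancomycin colons and 13 and 14 of the vancomycin ilea, and Traf3ip2 for 3, those colons and replicate 14 of the ilea. Cebpd was lost without replicate 13 of the vancomycin ilea (-0.78, adjusted p = 0.0528), and Traf3ip2 also with the replicate block as fixed terms.

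Adipocyte markers differed between tissues beside Hp and Orm1, which fat cells also express in mice. All 6 adipocyte markers were higher in ileum under both treatments, with a median difference of 2.81 under vancomycin and 2.38 with no antibiotic. Their mean was 10.34 to 11.80 in vancomycin ilea and 7.56 to 8.94 in vancomycin colons, and 10.65 to 11.15 in no-antibiotic ilea and 7.89 to 8.92 in no-antibiotic colons. Replicate 13 was the lowest of the vancomycin ilea for the marker mean, for Hp (7.62, with the others at 9.54 and 9.65) and for Orm1 (8.47, with the others at 10.11 and 11.10). The part of fat in the tissue differences of Hp, Orm1 and Saa3 was not tested.

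With no antibiotic, 11 of the 66 were higher in ileum and 10 lower, 31.8% against 20.5% of all probe sets. The Reg3 lectin genes were higher in ileum, by 6.40 ± 0.28 for Reg3a, 7.64 ± 0.41 for Reg3b and 6.55 ± 0.44 for Reg3g, as were Nos2 by 4.93 ± 0.35 and Ubd by 3.44 ± 0.31. Receptor subunits of the IL-17 family passed in both directions, with Il17rc higher by 1.44 ± 0.16 and Il17re, the IL-17C receptor, lower, at -2.16 ± 0.26. Among the partners of Fut2, B3galt5, a galactosyltransferase, was lower, at -5.44 ± 0.23, as was Fut8, which adds core fucose, at -1.23 ± 0.15, while B4galt1 was higher by 1.48 ± 0.32.

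The remaining calls with no antibiotic were Stat3 (0.91), Zc3h12a (1.17) and the acute-phase genes Hp (2.58) and Orm1 (2.49) higher in ileum, and Il1r1 (-1.40), Il18 (-1.12), Traf3ip2 (-0.56), Tlr2 (-0.96), Tlr4 (-3.01), Muc1 (-3.84) and Fpgt (-0.71) lower. Among these, Traf3ip2 and Fpgt were lost when 1 no-antibiotic ileum was left out, replicate 2 or 3 for Traf3ip2 (adjusted p of 0.0599 and 0.0601) and replicate 1 or 2 for Fpgt (0.0589 and 0.0714).

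The genes most like Saa1, Saa3 and Fut2 were found over the 13 arrays after the mean of each tissue had been subtracted, by Pearson correlation. For Saa1 they were Prss27, Il18bp and Gml2 (each 0.94) and Trpv5 (0.92), while Saa2 ranked 82 (0.80), Saa3 ranked 311 (0.67) and Fut2 ranked 453 (0.62). Saa3 was closest to Trmt1l (0.85), Nmi, Acrv1 and Zfp800 (each 0.82), with 1 predicted gene among them not named. Fut2 was closest to Agtrap (0.93), Ppp1r14bl (0.92), Taf4b (0.90) and Slc39a7 (0.88). Il17a, Il17f and Il22 correlated with Saa1 at 0.04, 0.25 and -0.22. The points share arrays and treatment groups, so these are descriptions of likeness.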

How the data were processed

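Biotin-labelled RNA of ileum and colon was measured on Affymetrix arrays of 1 colour. The authors deposited log2 expression values, and the submitters' processing notes name RMA and, as software, Affymetrix Expression Console 1.4.1.46. RMA corrects background, normalizes between arrays and summarizes probes, so log2 differences are compressed for dim probe sets. Array medians ran from 7.98 to 8.14. Values above 16, the limit of a 16-bit scanner, occurred in 437 of 28846 probe sets, so differences are on the deposited scale. The platform annotation gave 19572 probe sets 1 symbol, 0 several and 9274 none. The 19572 stand for 19505 genes.

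Group means of all 13 arrays were fitted with limma 3.58.1 in R 4.3.3, with 1 shared spread and Benjamini-Hochberg adjustment over the 19572 probe sets at a threshold of 0.05. The number of arrays limits the precision. Nothing says that arrays of a group came from separate mice, so the spread behind the p-values may be technical. The script was tested on simulated data.

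Alternatives were a fit of the compared groups alone, array weights, the dimmest 33.3% left out, an intensity trend with robust prior, median centring, the mean of a gene's rows, each array left out and the replicate number as a block. The members and lists were chosen with earlier results of these data known. Named are the 9 members and the list genes past the threshold in a comparison. Where fewer than 2 genes of a list passed for vancomycin in the ileum, the 2 with the smallest unadjusted p there were named. The 4 genes most like each of the 3 members with the smallest ileal p were named too. Iltifb, the ileal values of Saa4 and the markers Cd6 and Muc2 were added outside these rules. Promoter windows are RefSeq sequence of GRCm38.p6.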

Additional observations from a re-analysis of the deposited data

Results flagged for a closer look

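In no-antibiotic colon, Il17a had 1 array far from the other 3: replicate 3 at 6.61, against 6.12 to 6.17. The gap was 0.898 of the group's range, above Dixon's critical value for 4 samples. B4galt1, a partner of Fut2, had replicate 2 at 11.06, against 10.25 to 10.29 in the other no-antibiotic colons, a gap of 0.951 of the range. These were 2 of 42 genes checked, and chance alone flags about 1 in 20.

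The vancomycin change differed between ileum and colon for 3 of the 66 list genes, by a test of the difference itself in limma. That was 4.55% of the list genes, against 0.189% of all probe sets. The lists were chosen with earlier results of these data known, so this share is a description. The change in ileum minus that in colon was -1.87 for Zc3h12a, -3.67 for Nos2 and -4.11 for Ubd, with adjusted p of 0.0257, 0.0108 and 0.00304. The Zc3h12a call was lost when any one of 6 arrays was left out. In the colon alone the differences of vancomycin minus no antibiotic were -0.02 for Zc3h12a, 0.17 for Nos2 and 0.42 for Ubd.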

How the results depend on the processing

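Of 903 repeats of the members' tests under an alternative, 863 kept direction and side of the threshold, 5 lost a call, 12 gained one and 23 changed sign, all 23 for differences that had not passed. The count of members past the threshold in the ileum, 1, was 0 in a fit of the ileal arrays alone, 2 with array weights (Saa1, and Saa3 at -1.42, adjusted p = 0.0479), and 0 to 1 when 1 array was left out. Among the vancomycin ilea the array weights were 3.79 for replicate 13, 0.30 for replicate 11 and 0.64 for replicate 14. Weighted results of that group thus rest mainly on replicate 13. The count for the difference between tissues in the vancomycin change, 0, was 0 to 1 when 1 array was left out. In the colon it was 0 in every fit. Between tissues it was 4 under vancomycin, 4 to 5 when 1 array was left out and 5 with array weights (Il22ra1 gained at 1.10, adjusted p = 0.0139). With no antibiotic it was 5, 4 to 6 when 1 array was left out and 6 with the compared groups alone or array weights, Saa3 being gained. The whole-array count in the ileum, 105, was 20 in the fit of the ileum alone, 1012 with array weights and 40 to 172 when 1 array was left out. In the colon, 2, it was 0, 38 and 0 to 217, and for the difference between tissues in the change, 37, it was 191 with array weights, 23 with the fixed block and 12 to 84 when 1 array was left out. For ileum minus colon it was 2961 under vancomycin, with 1875 in the groups alone and 4903 with array weights, and 4020 with no antibiotic, within 1.5 times in each alternative.

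Sign changes when 1 array was left out gave these ranges. In the colon, vancomycin minus no antibiotic, they were -0.39 to 0.38 for Il22ra1 and -0.0825 to 0.83 for Saa3. For the change in ileum minus that in colon they were -0.14 to 0.0858 for Il22, -0.0433 to 0.11 for Il17f and -0.74 to 0.10 for Fut2, and Il22 was also 0.0539 with array weights. Under vancomycin, ileum minus colon, Il23r was -0.17 to 0.44. With no antibiotic the ranges were -0.0433 to 0.12 for Il17a, -0.0033 to 0.15 for Il17f and -0.20 to 0.0225 for Il22. The cause of these changes was not tested.

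Deviations of same-numbered ilea and colons correlated at -0.02 to 0.24, and 2 of 6 ilea correlated best with their own number, so the numbers were not taken as pairs. With the replicate block as a random term the ileal count stayed 1 (Saa1 -3.17, adjusted p = 0.0217) and the tissue counts were 4 under vancomycin and 6 with no antibiotic (Saa3 gained at -1.30, adjusted p = 0.0445). With the replicate block as fixed terms they were 5 under vancomycin (Il22ra1 gained, adjusted p = 0.00745) and 6 with no antibiotic (Saa3 gained at -1.53, adjusted p = 0.0178), Il22 was 0.0133 for the change in ileum minus that in colon, and Il17a was -0.0267 for ileum minus colon with no antibiotic. The medians of the 5 lists moved by at least their spread within groups in 31 repeats, and are descriptions only. Sign changes of these medians were not counted. No detection calls were available, so signal over background is unknown here.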
